A study of Mus musculus with 24 samples.

Results

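The 10 genes studied belong to the lipid pathway of the sebaceous gland and were followed in mouse skin. They are the desaturases Scd1 and Scd3, the elongase Elovl3, the acyl-CoA synthetase Acsbg1, the hydroxylase Fa2h, the fatty alcohol-forming reductase Far2, the wax synthases Awat1 and Awat2, the triglyceride synthase Dgat2 and the melanocortin receptor Mc5r. The set was chosen by name, with earlier results of these data known. All 10 were among the 18892 genes of the expression table, and all 10 passed the filter on low values. Poly(A) RNA was sequenced from the skin of 24 mice, 4 in each of 6 groups. Control mice were injected with saline every day and had solvent alone put on the skin. Model mice were injected every day with dihydrotestosterone (DHT, an androgen) and had the same solvent. Treatment mice were injected with DHT and had an extract of HLX (Hanlianxiang, a traditional Chinese medicine formula) put on the skin. Skin was taken at day 10 or day 15 from different mice, which had been allotted to the 3 treatments at random. The mouse strain, sex, age, DHT dose, skin site and extract amount are not given in the sources used here, and no label names a batch.

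Sebaceous glands open into the hair follicle, and their cells, the sebocytes, fill with lipid droplets and then burst to release sebum. Sebum lipids include wax esters, triglycerides and sterol esters. They are built from fatty acids that are desaturated, lengthened and activated to acyl-CoA, and in part reduced to fatty alcohols before they are joined. Androgens and melanocortin peptides are known to act on the gland. Several of these enzymes also work outside it, Scd1 and Dgat2 above all in adipocytes, and the samples were whole skin. In such bulk samples, fewer sebocytes and less RNA per sebocyte cannot be told apart.

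Promoter sequences are shown for 4 members on which the results below turn, with the 250 bases upstream of the start site from RefSeq on GRCm38.p6, 5′ to 3′ on the strand of the gene. Awat1 and Far2 varied together between mice, Awat2 was lower at day 15 under all 3 treatments, and Acsbg1 was the member called between DHT and control skin. Capitals mark every match to 1 of the 6 motifs searched on both strands: TATAAA (the box bound by the TATA-binding protein), CCAAT (the box bound by NF-Y), GGGCGG (the box bound by Sp1), TGTTCT (the core hexamer of steroid hormone receptor elements), AGGTCA (the core hexamer of many other nuclear receptor elements) and TCACNCCAC (the sterol regulatory element bound by SREBP). A motif on the other strand appears as its reverse complement, so that the capitals ATTGG stand for CCAAT and the capitals CCGCCC stand for GGGCGG.
Awat1 (chrX:100571997-100572246, plus strand): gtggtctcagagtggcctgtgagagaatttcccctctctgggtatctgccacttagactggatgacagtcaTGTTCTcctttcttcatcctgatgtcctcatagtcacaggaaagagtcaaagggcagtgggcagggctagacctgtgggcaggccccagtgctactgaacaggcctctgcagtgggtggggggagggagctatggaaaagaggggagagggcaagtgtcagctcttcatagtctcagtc
Far2 (chr6:148047166-148047415, plus strand): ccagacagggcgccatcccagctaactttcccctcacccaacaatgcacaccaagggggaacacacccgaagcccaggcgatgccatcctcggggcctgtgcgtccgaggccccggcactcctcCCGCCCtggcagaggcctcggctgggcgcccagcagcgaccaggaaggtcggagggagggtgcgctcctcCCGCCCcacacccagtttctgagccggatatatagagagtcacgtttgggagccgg
Awat2, upstream start site (chrX:100442718-100442967, minus strand): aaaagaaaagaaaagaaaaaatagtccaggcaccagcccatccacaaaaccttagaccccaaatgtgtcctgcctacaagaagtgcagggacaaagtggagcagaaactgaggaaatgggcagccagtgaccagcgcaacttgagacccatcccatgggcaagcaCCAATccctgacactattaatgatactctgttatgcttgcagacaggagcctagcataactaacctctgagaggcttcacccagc
Acsbg1 (chr9:54661886-54662135, minus strand): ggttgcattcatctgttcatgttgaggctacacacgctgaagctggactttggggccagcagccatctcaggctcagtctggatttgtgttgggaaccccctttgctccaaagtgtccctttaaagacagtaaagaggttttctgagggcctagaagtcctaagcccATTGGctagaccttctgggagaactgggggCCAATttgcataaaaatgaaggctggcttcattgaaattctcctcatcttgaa

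The motif search covered 5 of the 10 members with 6 start sites, and the promoter of Mc5r was left out of it. Awat1 had 1 TGTTCT match, 179 bases before its start, and 16.08% of the 32851 promoters in the table held that motif in the same window. Acsbg1 had 2 CCAAT matches, 83 and 53 bases before the start, and Awat2 had 1 CCAAT match 85 bases before its upstream start, where 33.85% of all promoters held a match. Far2 had 2 GGGCGG matches, 126 and 56 bases before its start, a motif found in 32.74% of promoters. The downstream start site of Awat2 held 1 CCAAT and 1 GGGCGG match, and Scd3 held no match. The TATA-binding protein box, the general nuclear receptor hexamer and the sterol regulatory element, present in 12.37%, 14.02% and 1.05% of all promoters, matched none of the 6 windows. These matches are letters in a window and were not tested as binding sites.

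Depth was even. Whole reads recovered from the table came to 37048896 to 41117262 per library, and the scarcest member, Awat2, still had 164 to 949 reads per library. A pair of libraries stood apart from their groups. In treatment mouse 3 at day 15 the summed level of 6 dermal fibroblast markers was 2742 FPKM (fragments counted on a gene, divided by its length and by the depth of the library), against 6527 to 9224 in the other mice of its group. In model mouse 3 at day 15 the sum of 6 basal epidermis markers was 713 FPKM, the lowest of the 24 libraries. Summed Y-linked transcripts were 22.3, 22.3 and 33.4 FPKM in treatment mice 1, 2 and 4 at day 15 and 28.3 in treatment mouse 3 at day 10, against 39.2 to 50.6 in the other 20 libraries. Member calls that change without these libraries are given with and without them.

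FPKM is scaled by gene length, so levels can be compared between genes. Scd1 was the most abundant member, with a mean of 342 FPKM over the 24 libraries and a range of 205 to 714, and it lay above every other member in each of the 6 groups without overlap. Elovl3 followed with a mean of 74.2 FPKM, then Dgat2 with 60.6, Scd3 with 48.1, Fa2h with 42.6, Far2 with 38.1 and Awat1 with 30.9. Most neighbours in this middle order overlapped within a group, and Elovl3 and Dgat2 exchanged places between groups. Acsbg1 had a mean of 14.1 FPKM, Mc5r of 6.49 and Awat2 of 4.19. Awat2 was the lowest by mean in all 6 groups, but its values overlapped those of Mc5r in all 3 groups of day 10 and in the model group of day 15. Scd1 and Scd3 are related desaturase genes. Of the 50-base stretches of their transcripts, 4.562% for Scd1 and 6.545% for Scd3 also occurred in another gene (GENCODE M21). Some reads could therefore have been counted for another gene. Their share was not computed, and with Scd1 the more abundant it could be larger for Scd3 than the share of stretches.

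**Figure D1:**
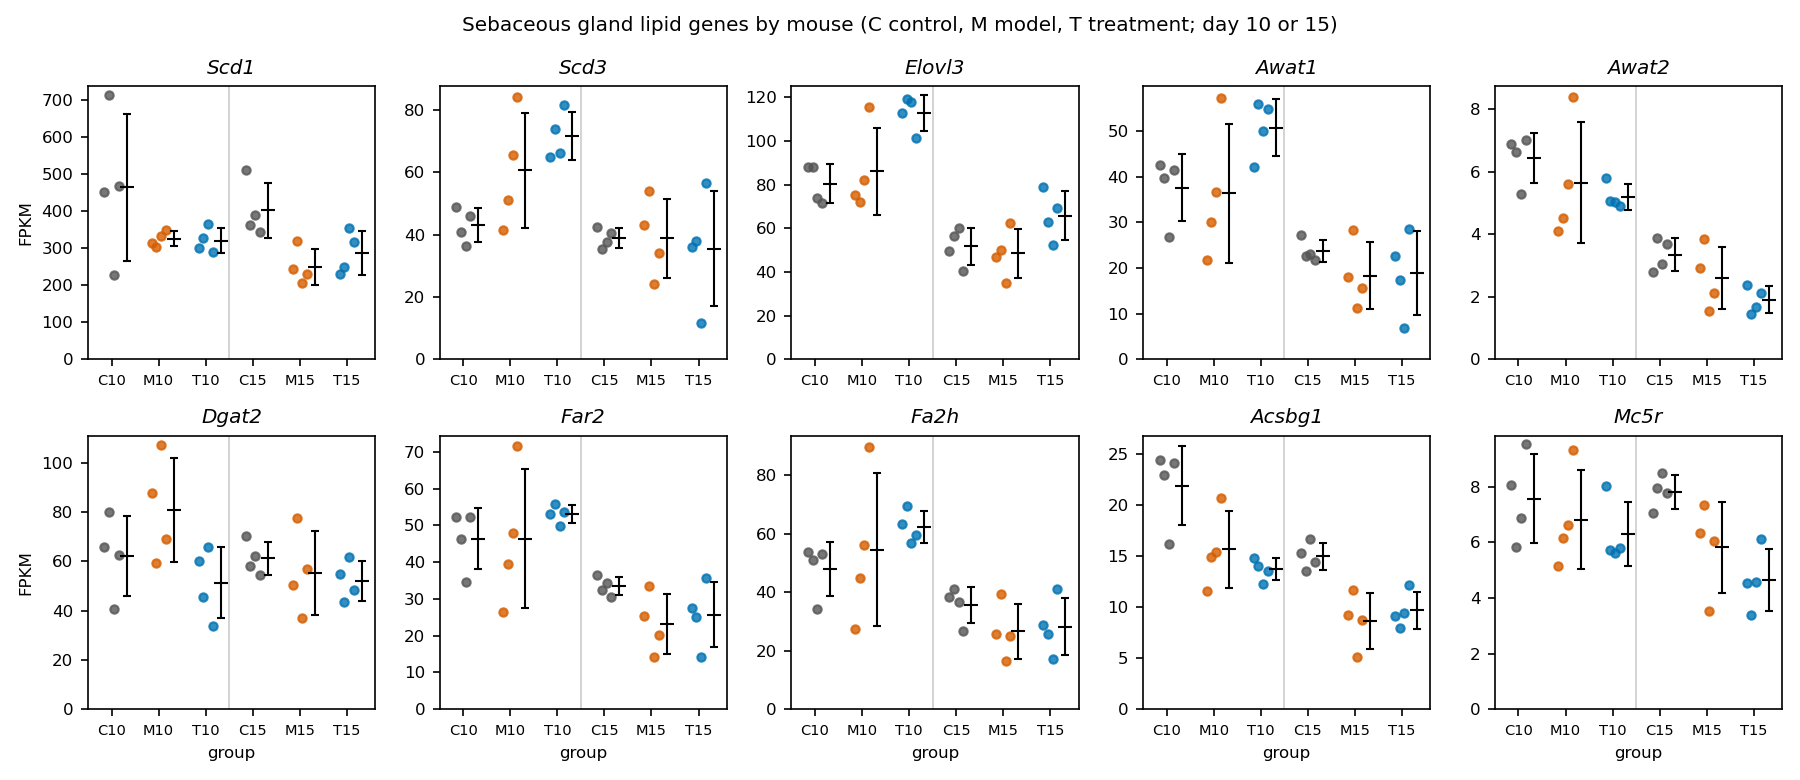
Level of each of the 10 genes in FPKM (vertical axis) in the 6 groups (horizontal axis: C control, M model, T treatment, at day 10 or 15). Each point is 1 mouse and the black bar is the mean ± SD (n = 4). Scd1 stays above 205 FPKM in every mouse, while Awat2 does not pass 8.4 FPKM.

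The widest change in the set was between the days. A gene is called here at an adjusted p under 0.05 in limma, adjusted over all 13039 genes tested, and each difference is one of log2(FPKM + 1) values, followed by its standard error from the model (SE). From day 10 to day 15, 2 members fell in control skin, 5 in model skin and 6 in treatment skin, and none rose. Over all genes tested, 3.33% were called lower in control, 6.85% in model and 7.53% in treatment skin. The median difference of the 10 members was -0.43 in control, -0.81 in model and -0.93 in treatment skin, against medians of -0.07, -0.08 and -0.06 over all genes. The mice of day 15 were taken later and had been injected for longer, and these differences of the design cannot be told apart from the day.

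Elovl3 and Awat2 were the members that fell under all 3 treatments, in separate mice each time. Elovl3, which lengthens saturated and monounsaturated fatty acyl chains, measured 88, 88.3, 74.1 and 71.4 FPKM in the 4 control mice of day 10 and 49.6, 56.4, 60.3 and 40.6 in those of day 15. The groups did not overlap, and the difference was -0.64 (SE 0.17, adjusted p = 0.0358). In model skin Elovl3 measured 75.1, 71.9, 82.3 and 115 FPKM at day 10 and 46.7, 49.9, 35.2 and 62.3 at day 15, again without overlap (-0.82, SE 0.17, adjusted p = 0.00809). In treatment skin it measured 113, 119, 118 and 101 FPKM at day 10 and 78.9, 62.9, 52.2 and 69.3 at day 15, and every mouse of day 15 was below every mouse of day 10 (-0.78, SE 0.17, adjusted p = 0.00796).

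Awat2, a wax synthase that joins fatty alcohols to acyl-CoA, measured 6.88, 6.62, 5.29 and 7.01 FPKM in control skin at day 10 and 2.78, 3.88, 3.05 and 3.68 at day 15 (-0.78, SE 0.18, adjusted p = 0.0226). Model skin held 4.1, 4.51, 5.6 and 8.4 FPKM at day 10 and 2.91, 3.85, 1.56 and 2.12 at day 15 (-0.88, SE 0.18, adjusted p = 0.00843). Treatment skin held 5.8, 5.06, 5.04 and 4.89 FPKM at day 10 and 2.38, 1.46, 1.67 and 2.12 at day 15 (-1.10, SE 0.18, adjusted p = 0.00212). The days did not overlap under any of the 3 treatments. In control skin Elovl3 and Awat2 were the 2 members that were lower at day 15 without overlap, where 15.4% of all genes were. The same 2 were so in model skin, where 12.8% of all genes were, and 7 members were so in treatment skin, where 9.57% of all genes were. Treatment mouse 2 at day 15, at 1.46 FPKM, was the lowest of the 24.

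Awat1, the other wax synthase of the set, had its widest difference in treatment skin. It measured 42.1, 56, 50.1 and 54.7 FPKM at day 10 and 22.6, 17.3, 6.87 and 28.6 at day 15 (-1.53, SE 0.33, adjusted p = 0.00814). All mice of day 15 were below all of day 10, and the lowest, mouse 3, is the library with few fibroblast markers. In model skin Awat1 ran from 21.6 to 57.3 FPKM at day 10 and from 11.3 to 28.4 at day 15, and the difference of -0.94 (SE 0.33) was not called (adjusted p = 0.0723). It was called without model mouse 1 of day 10 (adjusted p = 0.0448) or without model mouse 2 of day 15 (0.0339), and over all alternatives the adjusted p ran from 0.0339 to 0.274.

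Far2, which makes the fatty alcohols for wax esters, and Fa2h, which adds a hydroxyl group to fatty acids, fell in model and treatment skin. Far2 in treatment skin measured 53.2, 55.7, 49.7 and 53.8 FPKM at day 10 and 27.6, 25.1, 14.3 and 35.7 at day 15 (-1.09, SE 0.27, adjusted p = 0.0161). Fa2h in treatment skin measured 63.3, 69.5, 56.9 and 59.7 FPKM at day 10 and 28.9, 25.7, 17.3 and 41.1 at day 15 (-1.17, SE 0.29, adjusted p = 0.0168). Neither gene overlapped between the days in treatment skin. In model skin the mice of day 10 were spread widely, Far2 from 26.5 to 71.5 FPKM and Fa2h from 27.4 to 89.9, and both genes overlapped with day 15. The model differences were -0.94 for Far2 (SE 0.27, adjusted p = 0.0351) and -0.95 for Fa2h (SE 0.29, adjusted p = 0.047).

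Scd3 was called between the days in treatment skin. It measured 64.9, 74.1, 66.2 and 81.7 FPKM at day 10 and 36, 38, 11.5 and 56.4 at day 15 (-1.18, SE 0.32, adjusted p = 0.025), without overlap. In control skin it ran from 36.4 to 48.8 FPKM at day 10 and from 35.3 to 42.5 at day 15, a difference of -0.14 (95% interval -0.80 to 0.53). Acsbg1, which activates long fatty acids to acyl-CoA, fell in model skin (-0.81, SE 0.18, adjusted p = 0.0155). Its values there were 11.6, 14.9, 15.4 and 20.6 FPKM at day 10 and 9.18, 11.6, 5.06 and 8.67 at day 15, and mouse 1 of day 10 lay within the range of day 15. Acsbg1 also had a lower fitted level at day 15 in control skin (-0.51, 95% interval -0.89 to -0.12, adjusted p = 0.102). In treatment skin its difference was -0.47 (-0.86 to -0.09, adjusted p = 0.105), and neither was called.

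The remaining 3 members were not called between the days under any treatment. Scd1 differed by -0.11 in control, -0.40 in model and -0.17 in treatment skin (SE 0.23 each). Dgat2, which makes triglycerides, differed by 0.01, -0.55 and 0.05 (SE 0.23 each). Mc5r, a receptor without which mice make less sebum, differed by 0.06, -0.21 and -0.38 (SE 0.18 each), with an interval of -0.76 to 0.01 in treatment skin.

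**Figure D2:**
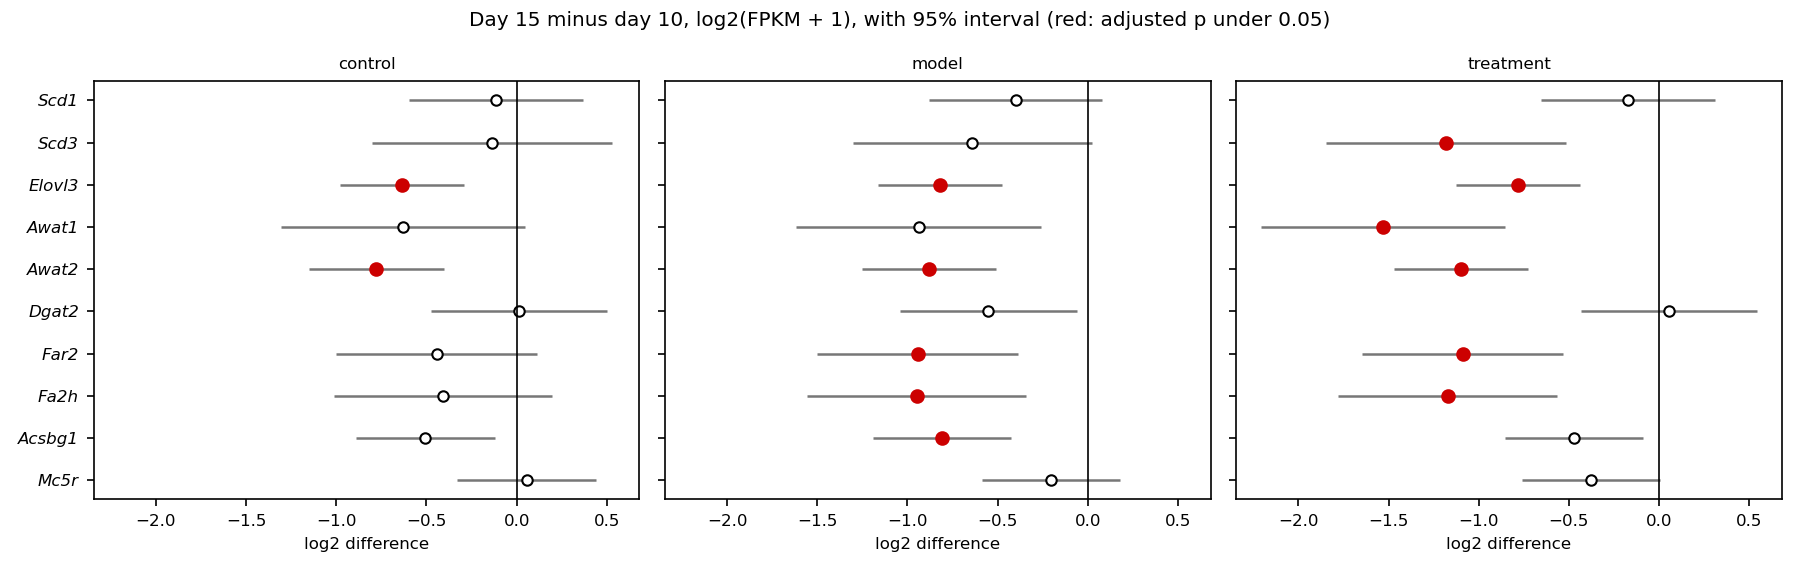
Day 15 minus day 10 for each of the 10 genes on the log2(FPKM + 1) scale (horizontal axis), in control, model and treatment skin. Points are fitted differences, lines are 95% intervals and filled red points are called; Elovl3 and Awat2 are filled under all 3 treatments.

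Some of these calls were lost when 1 library was left out, and the fitted difference did not always shrink. For Elovl3 in control skin it was -0.69 without mouse 4 of day 10 and -0.53 without mouse 4 of day 15, against -0.64 with all mice. In control skin the Elovl3 call was lost without mouse 1, 2 or 4 of day 10 or mouse 1, 2 or 4 of day 15 (adjusted p up to 0.123), and the Awat2 call without mouse 1, 2 or 4 of day 10 or mouse 1 or 4 of day 15 (up to 0.078). In model skin the calls of Elovl3 and Awat2 held without any 1 library. The Far2 call was lost without model mouse 2, 3 or 4 of day 10 or mouse 3 or 4 of day 15 (adjusted p up to 0.168), and the Fa2h call without those or mouse 1 of day 15 (up to 0.206). The Acsbg1 call was lost without mouse 4 of day 10 (0.0592) or mouse 3 of day 15 (0.0749). In treatment skin the calls of Elovl3, Awat1 and Awat2 held without any 1 library. The Scd3 call was lost without mouse 2 or 4 of day 10 or mouse 1 of day 15 (up to 0.0682), and those of Far2 (0.0518) and Fa2h (0.0582) without mouse 2 of day 10. Without the 2 treatment libraries of day 15 with a Y-linked sum under 0.5 of the median (mice 1 and 2), the calls of Scd3 (-1.43, adjusted p = 0.0627), Far2 (-1.19, 0.0687) and Fa2h (-1.19, 0.0923) were lost in treatment skin. Without both mouse 3 libraries of day 15, those of Far2 (-0.74, adjusted p = 0.0898), Fa2h (-0.75, 0.143) and Acsbg1 (-0.60, 0.0634) were lost in model skin, and Acsbg1 was called lower in treatment skin (-0.47, 0.0472). When only the 8 treatment libraries were fitted, the calls of Scd3 (adjusted p = 0.156) and Awat1 (0.059) were lost. When only the 8 model libraries were fitted, no member was called between the days and 8 genes were called in all. With only the 8 control libraries, Awat1 (adjusted p = 0.0259), Far2 (0.0476) and Acsbg1 (0.031) were called lower as well.

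Markers of other skin layers also differed between the days, some lower and some higher. Of 6 basal epidermis markers, none was called in control, 1 was called lower in model and 4 in treatment skin. Of 6 suprabasal epidermis markers, none was called in control, 2 were called lower in model and 1 higher in treatment skin. Their summed level ran from 935 to 1462 FPKM in control skin at day 10 and from 775 to 865 at day 15. In model skin it ran from 820 to 1725 and from 451 to 834, and in treatment skin from 949 to 1315 and from 684 to 962. Of the 6, 2 in control, 2 in model and 4 in treatment skin had a fitted difference above 0. Of 9 hair shaft and matrix markers, none was called in control and 3 were called higher in each of model and treatment skin, and of 6 inner root sheath markers none, 1 and 5 were called higher. Of 6 dermal fibroblast markers, 2 were called lower in treatment skin (median of the list -0.58) and none in control or model skin. Of 8 macrophage markers, 1 was called higher in control skin and none in model or treatment skin. The summed level of the 6 basal epidermis markers ran from 1421 to 1615 FPKM in treatment skin at day 10 and from 986 to 1347 at day 15. None of these 6 was at 0 in all libraries. In control skin the same sum ran from 1323 to 1650 FPKM at day 10 and from 1469 to 1664 at day 15. The part of all these skin markers in the result was not tested.

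DHT was set against control to ask what the androgen changed in the skin. At day 10 no member was called, where 13.8% of all genes were, and 1 member passed an unadjusted p of 0.05, where 30.1% of all genes did. That member was Acsbg1, at 24.3, 22.9, 16.2 and 24.1 FPKM in control mice and 11.6, 14.9, 15.4 and 20.6 in model mice (-0.47, SE 0.18, adjusted p = 0.0908). Only control mouse 3 lay within the model range. Scd1 was spread in control skin, at 452, 714, 228 and 468 FPKM, and close together in model skin, at 316, 305, 334 and 351. Its difference was -0.40 (SE 0.23, adjusted p = 0.249). Without control mouse 3, the lowest, the difference of Scd1 was -0.71 and was called (adjusted p = 0.0322, within a range of 0.0322 to 0.635 over all alternatives).

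At day 15 all 10 members had a lower fitted level in DHT skin than in control skin, and 1 of them, Acsbg1, was called. Over the alternatives the difference of Scd3 ran from -0.23 to 0.14 and that of Elovl3 from -0.23 to 0.04, so their direction was not fixed. The other members stayed lower in every alternative. The share of all genes with a lower fitted level was not computed. The median difference was -0.41, against -0.03 over all genes, and 6.56% of all genes were called lower. Acsbg1 measured 15.3, 13.5, 16.6 and 14.4 FPKM in control mice and 9.18, 11.6, 5.06 and 8.67 in model mice, without overlap (-0.77, SE 0.18, adjusted p = 0.0161). The call was lost without control mouse 3 (adjusted p = 0.0551), without model mouse 3 (0.0539) and when only the groups compared were fitted (0.0593), and it held in 14 of 17 alternatives with an adjusted p of 0.0126 to 0.0593 over all of them. Scd1 measured 512, 364, 390 and 345 FPKM in control mice and 245, 320, 205 and 230 in model mice, also without overlap, and was not called (-0.69, SE 0.23, adjusted p = 0.0578). When only the groups compared were fitted Scd1 was called (adjusted p = 0.0499), in place of Acsbg1, and over all 17 alternatives its adjusted p ran from 0.0499 to 0.157. Acsbg1 and Scd1 were the 2 members lower without overlap, where 12.3% of all genes were.

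The other 8 members overlapped between DHT and control skin at day 15. Far2 differed by -0.57 (95% interval -1.13 to -0.01), Fa2h by -0.46 (-1.06 to 0.15), Awat1 by -0.42 (-1.10 to 0.26) and Mc5r by -0.40 (-0.79 to -0.02). Elovl3 and Scd3 were closest to 0, at -0.10 (-0.45 to 0.24) and -0.06 (-0.72 to 0.60). Beside these values, summed dermal fibroblast markers ran from 4717 to 5792 FPKM in control and from 7358 to 13970 in model skin at day 15, without overlap. Of the 6 fibroblast markers 2 were called higher, and of the 8 macrophage markers 2 were called higher and all 8 had a fitted difference above 0. Called lower in model skin were 4 of the 6 suprabasal epidermis markers, 5 of the 6 inner root sheath markers and 3 of the 9 hair shaft and matrix markers. Of the 6 basal epidermis markers 2 were called lower in model skin, with sums of 1469 to 1664 FPKM in control and 713 to 1297 in model skin. Of 9 dermal adipocyte markers none was called, and 7 had a fitted difference below 0 (median -0.18, lowest -1.19). Their sums ran from 2191 to 2810 FPKM in control and from 1322 to 4057 in model skin. No marker of these lists was at 0 in all libraries, and the part of these markers in the result was not tested.

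Whether the DHT difference changed between the days was tested directly. No member was called, and no gene of the 13039 was called by limma or by voom on the recovered reads. Of all genes 2.7% passed an unadjusted p of 0.05, and none of the 10 members did. The largest fitted change among the members was that of Dgat2, at -0.56 (95% interval -1.26 to 0.13).

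Treatment was set against model to ask what the extract changed in DHT skin. No member was called at day 10, where 0.192% of all genes were, or at day 15, where 19.7% were. At an unadjusted p of 0.05, 2 members passed at day 10 (Elovl3 and Dgat2) and 1 at day 15 (Elovl3), against 10.4% and 35.1% of all genes. Elovl3 had a higher fitted level with the extract on both days, and was not called on either. At day 10 it measured 113, 119, 118 and 101 FPKM in treatment mice against 75.1, 71.9, 82.3 and 115 in model mice (0.41, SE 0.17, adjusted p = 0.39). Model mouse 4 was the one within the treatment range. At day 15 it measured 78.9, 62.9, 52.2 and 69.3 FPKM against 46.7, 49.9, 35.2 and 62.3 (0.44, SE 0.17, adjusted p = 0.0619). Here the call was gained without model mouse 4 (0.0265) or without treatment mouse 3 (0.0275), and the adjusted p ran from 0.0265 to 0.723 over all alternatives. Both comparisons used separate mice.

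At day 15, all 9 hair shaft and matrix, all 6 inner root sheath and 3 of 6 suprabasal epidermis markers were called higher with the extract, and 2 of 8 macrophage and 2 of 6 fibroblast markers lower. None of the markers of these lists was called at day 10, and their part in the Elovl3 values was not tested.

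Dgat2 had the widest difference with the extract at day 10. It measured 60.1, 45.6, 65.7 and 33.7 FPKM in treatment mice and 88, 59.3, 107 and 69.2 in model mice (-0.66, SE 0.23, adjusted p = 0.311). The groups overlapped. At day 15 its difference was -0.05 (95% interval -0.54 to 0.44). Of 9 dermal adipocyte markers none was called on either day, and their sums ran from 1632 to 2932 FPKM in model and from 1255 to 2272 in treatment skin at day 10. All 9 had a fitted difference below 0 at day 10 (median -0.49), and 8 did at day 15 (median -0.22). The part of adipocytes in the Dgat2 values was not tested.

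For the other 8 members the treatment-model differences at day 15 ran from -0.28 for Awat2 to 0.20 for Scd1. Acsbg1, called lower with DHT, differed by 0.18 with the extract (95% interval -0.21 to 0.56), at 9.06, 7.94, 9.42 and 12.2 FPKM against 9.18, 11.6, 5.06 and 8.67. Both comparisons share the model mice. Without the 4 libraries whose Y-linked sum was under 0.8 of the median, mouse 3 alone stood for treatment at day 15, and Scd3 (-1.61, adjusted p = 0.00566) and Awat1 (-1.22, adjusted p = 0.0371) were called lower. That single library is assumed to vary like the other groups, and over all alternatives the adjusted p ran up to 0.976 for Scd3 and 0.985 for Awat1. The change of the treatment-model difference between the days was called for no member and for 0.0997% of all genes, and no member passed an unadjusted p of 0.05, where 14.4% of all genes did. Without the same 4 libraries, that change was called for Scd3 (-1.93, adjusted p = 0.0303).

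**Figure D3:**
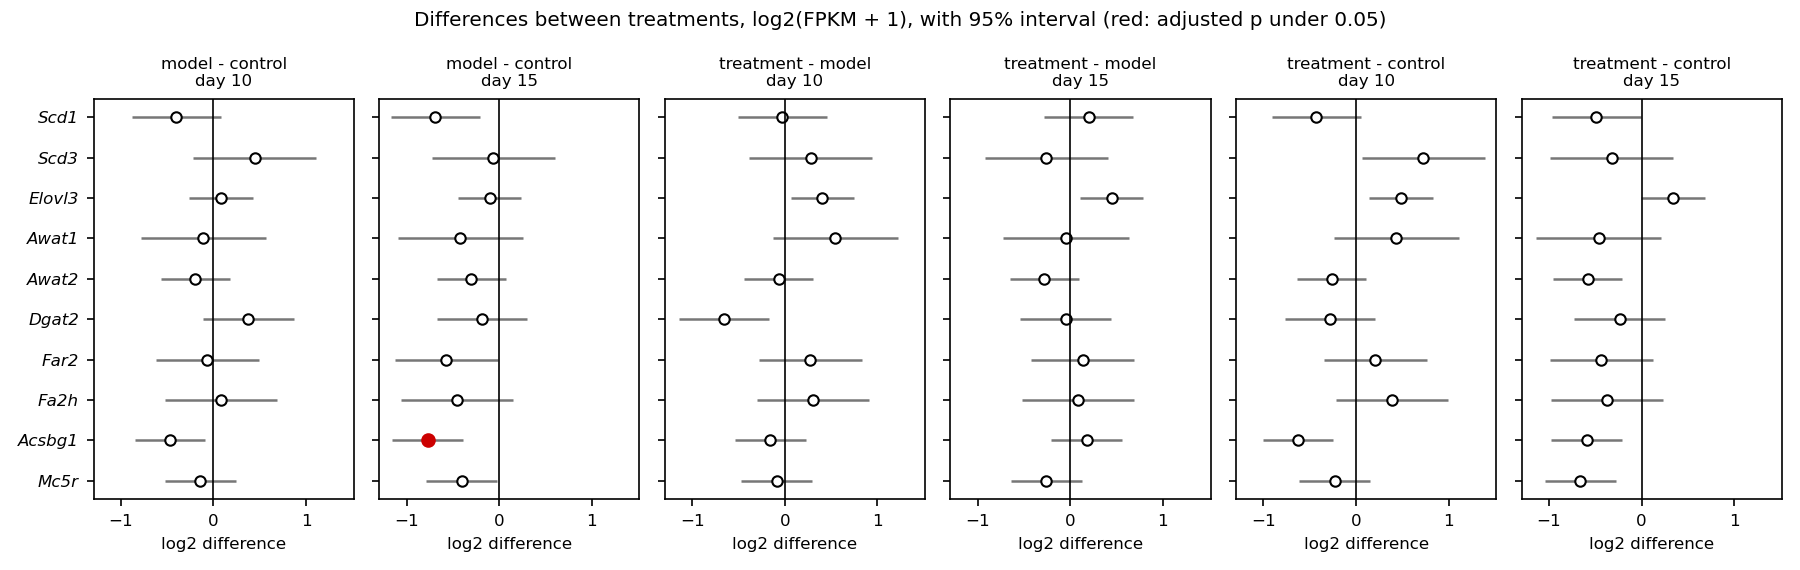
Differences of each of the 10 genes on the log2(FPKM + 1) scale (horizontal axis) for model minus control, treatment minus model and treatment minus control skin at each day. Points are fitted differences, lines are 95% intervals and the filled red point is called; it is Acsbg1 in model minus control at day 15, at -0.77.

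Treatment against control compares skin with DHT and extract with skin that had neither. At day 10 no member was called, where 3.24% of all genes were, and 3 passed an unadjusted p of 0.05 (Scd3, Elovl3 and Acsbg1), where 26% of all genes did. Yet Scd3, Elovl3 and Fa2h were higher in every treatment mouse than in every control mouse, and Acsbg1 was lower in every one, where 11.4% of all genes were higher and 12.4% lower without overlap. Scd3 measured 64.9, 74.1, 66.2 and 81.7 FPKM against 48.8, 40.9, 36.4 and 46.1 (0.73, SE 0.32, adjusted p = 0.162). Elovl3 was at 101 FPKM or more against at most 88.3 (0.49, SE 0.17, adjusted p = 0.0915). Acsbg1 measured 14.8, 14, 12.3 and 13.5 FPKM against 24.3, 22.9, 16.2 and 24.1 (-0.63, SE 0.18, adjusted p = 0.0601). When only these 2 groups were fitted, Scd3 (adjusted p = 0.00221), Elovl3 (0.00732) and Acsbg1 (0.0093) were called. Over all alternatives their adjusted p ran up to 0.3, 0.221 and 0.183.

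At day 15 no member was called, where 0.314% of all genes were, and 4 passed an unadjusted p of 0.05 (Scd1, Awat2, Acsbg1 and Mc5r), where 19.7% of all genes did. Awat2, Acsbg1 and Mc5r were lower in every treatment mouse than in every control mouse, where 4% of all genes were lower without overlap. Mc5r measured 4.52, 3.39, 4.56 and 6.1 FPKM in treatment and 7.04, 7.96, 8.49 and 7.77 in control mice (-0.66, SE 0.18, adjusted p = 0.0917). The differences of Acsbg1 and Awat2 were -0.59 (SE 0.18, adjusted p = 0.106) and -0.58 (SE 0.18, adjusted p = 0.105). Without treatment mouse 3, Mc5r (adjusted p = 0.0274) and Acsbg1 (0.0463) were called lower. Without both mouse 3 libraries of day 15 (model and treatment), Mc5r (0.0111), Acsbg1 (0.0152) and Awat2 (0.0324) were called lower and Elovl3 (0.0401) higher. Across all alternatives the adjusted p of these 4 ran up to 0.999.

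Ratios between members within a mouse do not depend on how much of the library came from the gland, as far as both genes are read from it. There were 45 pairs of members, and the ratios described here were picked after their values were seen and carry no test. The Elovl3:Acsbg1 ratio was 3.62, 3.86, 4.58 and 2.97 in control mice at day 10, 6.48, 4.82, 5.36 and 5.6 in model mice and 7.62, 8.49, 9.61 and 7.47 in treatment mice. The 3 groups did not overlap. At day 15 it was 3.24, 4.17, 3.63 and 2.82 in control mice, 5.09, 4.29, 6.94 and 7.18 in model mice and 8.7, 7.92, 5.54 and 5.69 in treatment mice, so that DHT skin with and without extract lay above control skin and both overlapped each other.

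The Scd3:Acsbg1 ratio separated DHT from control skin on both days. It was 2, 1.79, 2.25 and 1.92 in control mice at day 10 and 3.59, 3.43, 4.27 and 4.08 in model mice. At day 15 it was 2.78, 2.61, 2.26 and 2.81 in control mice and 4.7, 4.63, 4.75 and 3.94 in model mice, which included model mouse 3 with its low absolute levels. Treatment mice had 4.38, 5.28, 5.4 and 6.04 at day 10 and 3.97, 4.79, 1.22 and 4.64 at day 15, and mouse 3 was the one below the control range. The Elovl3:Awat2 ratio was higher in treatment than in model skin on both days, at 19.5, 23.5, 23.4 and 20.7 against 13.7 to 18.3 at day 10, and at 33.1, 43.1, 31.2 and 32.6 against 13 to 29.3 at day 15. In control skin that ratio ran from 10.2 to 14 at day 10 and from 11 to 19.8 at day 15.

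Of the 45 ratios, 10 (22.2%) separated model from control skin at day 10 and 11 (24.4%) at day 15. Over all pairs of the 12971 tested genes above 0 in every library, 23.9% and 20.1% of ratios did, so the members' counts were near this background. Acsbg1 was a member of 5 of the separating ratios on each day, and Scd3 of 5 and 3. Between treatment and model skin, 9 ratios (20%) separated the groups at day 10 and 4 (8.89%) at day 15, where 9.24% and 12.7% of all pairs did. The ratios share members and so are not independent of each other.

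**Figure D4:**
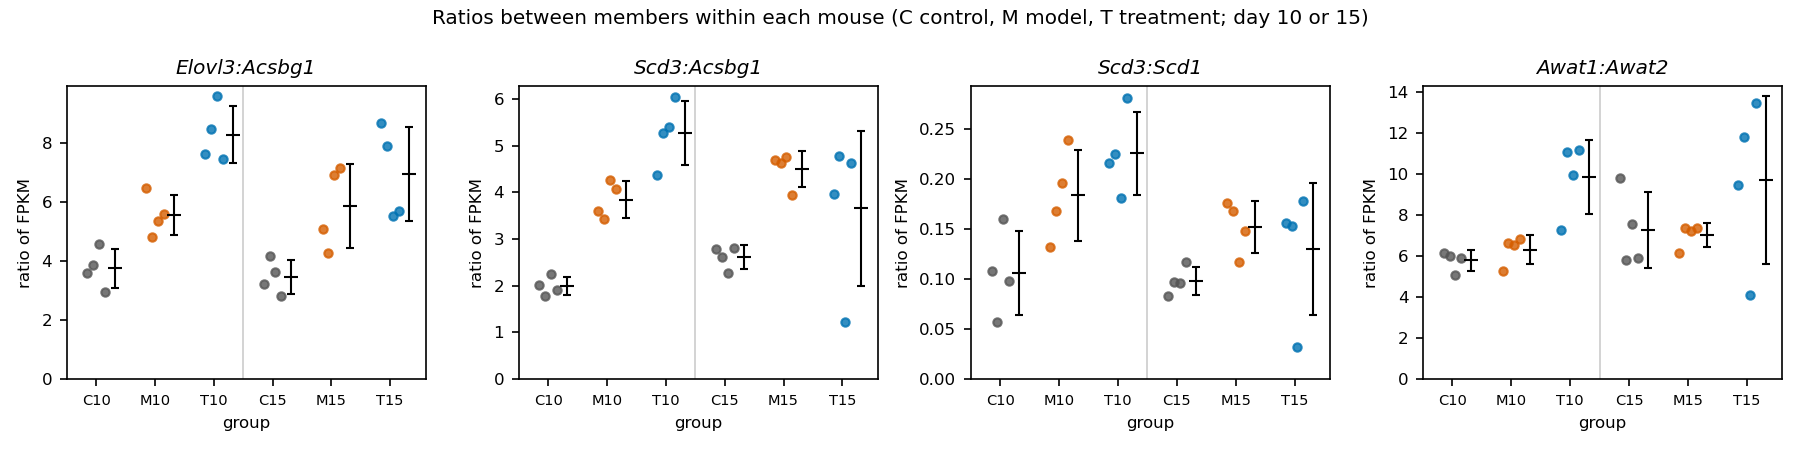
FPKM ratio of 2 genes within each mouse (vertical axis) in the 6 groups (horizontal axis), for 4 ratios. Points are mice; the Elovl3:Acsbg1 ratio runs from 2.97 to 4.58 in control, 4.82 to 6.48 in model and 7.47 to 9.61 in treatment skin at day 10.

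The members also varied together between mice of the same group. After the group mean was taken from each value, the correlation across the 24 mice, all from the same sequencing table, was 0.96 between Far2 and Fa2h, 0.96 between Awat1 and Far2 and 0.95 between Scd3 and Awat1 (Spearman 0.86, 0.92 and 0.89). Without the 2 libraries farthest from the median these were 0.95, 0.96 and 0.92. Acsbg1 and Mc5r had a correlation of 0.84 (Spearman 0.80, and 0.76 without the 2 farthest). The median over the 45 pairs was 0.57, and 28 pairs were over 0.5. The share over all pairs of genes was not computed, so this count has no background beside it. All these coefficients describe the mice at hand and carry no test.

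Scd1 and Dgat2 were less closely tied to the rest in this respect. Their correlation with each other was 0.69 (Spearman 0.65, and 0.59 without the 2 farthest). With the other 8 members, that of Scd1 ran from 0.08 with the related gene Scd3 to 0.55 with Acsbg1. That of Dgat2 ran from 0.01 with Scd3 to 0.42 with Acsbg1. Dgat2 had a correlation of 0.93 with the summed level of the 9 dermal adipocyte markers (Spearman 0.94, and 0.93 without the 2 farthest), and Scd1 of 0.67 (0.69 and 0.65). For the other 8 members it lay between -0.06 and 0.44 (Spearman -0.07 to 0.26, and -0.45 to 0.05 without the 2 farthest). The sums of several other lists moved with the other members as well. Far2 had a correlation of 0.78 with the summed suprabasal epidermis markers, 0.77 with the basal epidermis and 0.72 with the dermal fibroblast markers (0.66, 0.79 and 0.72 without the 2 farthest), and of -0.60 with the hair shaft and matrix markers (-0.41). Scd3 and Awat1 had correlations of 0.79 and 0.78 with the fibroblast markers (0.61 and 0.75 without the 2 farthest) and of 0.73 and 0.71 with the basal epidermis markers (0.77 and 0.79).

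**Figure D5:**
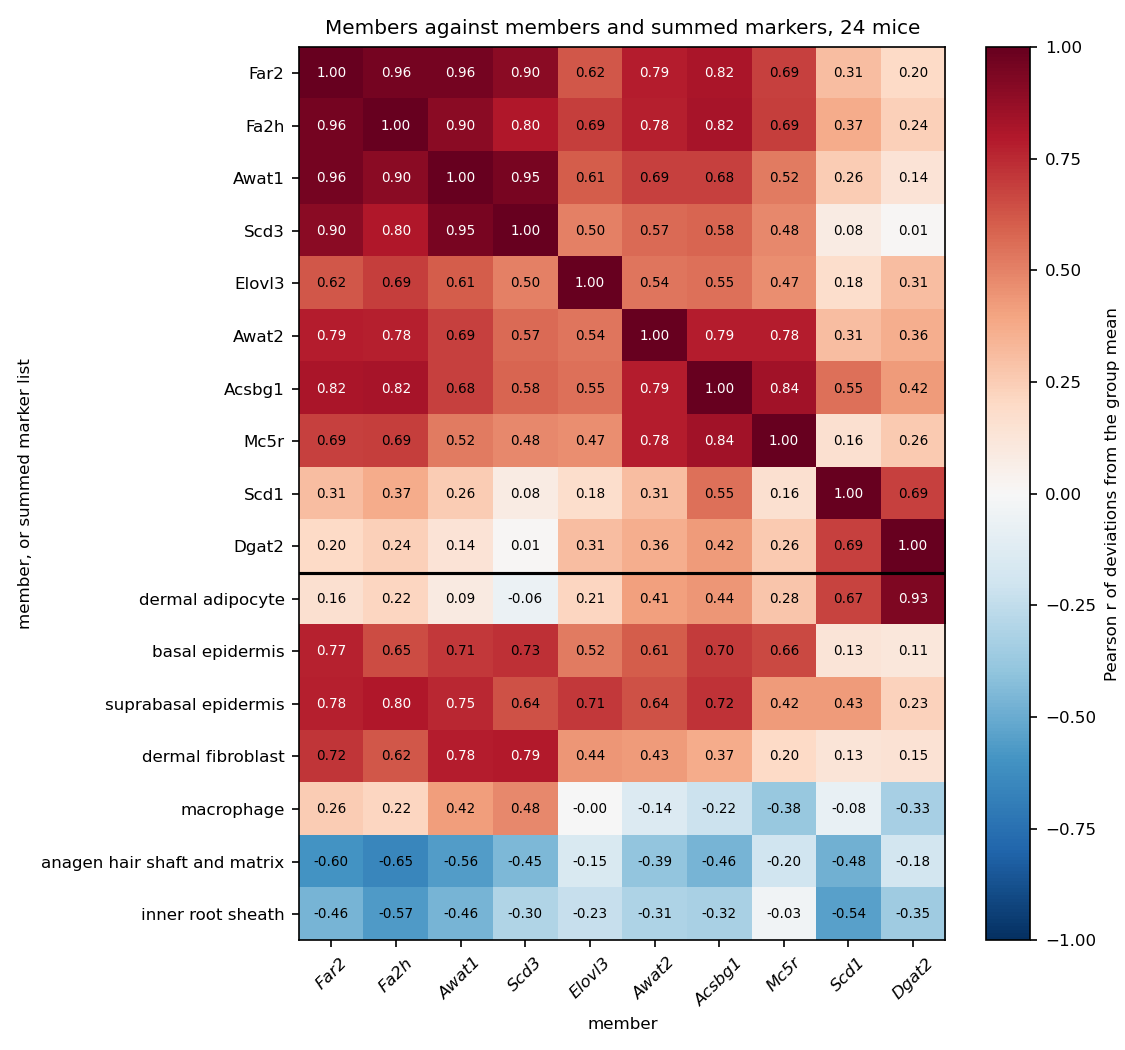
Pearson correlation between each pair of the 10 genes across 24 mice, after the group mean was taken from each log2(FPKM + 1) value (colour scale). Far2, Fa2h and Awat1 form a block of values of 0.90 to 0.96, while Scd1 and Scd3 are at 0.08.

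The tested genes most alike to the mean of the 10 standardised members over the 24 libraries were Cers4, a ceramide synthase (Pearson r = 0.96), the peroxisomal membrane protein gene Pxmp4 (0.95), the short-chain dehydrogenase gene Sdr16c6 (0.95), Skint1 (0.94) and the deacetylase gene Aadac (0.94). Cers4 measured 26.6 ± 3.09 FPKM (SD, n = 4) in control, 25.7 ± 8.37 in model and 27 ± 1.69 in treatment skin at day 10. At day 15 it measured 20.8 ± 2.49, 17.1 ± 4.73 and 16.8 ± 1.49. Sdr16c6 went from 127 ± 13.7 FPKM at day 10 to 52 ± 19.5 at day 15 in treatment skin. These genes were picked for their likeness, and their pattern is a description.

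Other genes of the pathway were taken as 4 lists. The first holds 15 tested genes of fatty acid supply and elongation. Of these, 4 fell between the days in treatment skin, where 7.53% of all genes did, all of them elongases: Elovl4 (-1.24, SE 0.24, adjusted p = 0.00508), Elovl5 (-0.79), Elovl6 (-1.02) and Elovl7 (-0.81). Elovl4, which makes very long chains for skin lipids, was at 381 ± 23.1 FPKM (SD, n = 4) at day 10 and 167 ± 53.4 at day 15. In model skin 4 also fell, where 6.85% of all genes did, and they were Elovl6 (-1.14), the desaturases Fads1 (-0.31) and Fads2 (-0.74), and Acly (-0.29), which supplies acetyl-CoA. In control skin 1 fell, Fads1 (-0.42, SE 0.09, adjusted p = 0.0155), where 3.33% of all genes did. With DHT at day 15 the malic enzyme gene Me1 fell (-0.49, adjusted p = 0.0252), and with the extract at day 15 Fads2 rose (0.70, adjusted p = 0.0137), each 1 of 15, where 10.8% and 19.7% of all genes were called. None of the 15 was called at day 10 with DHT, where 13.8% of all genes were, or with the extract, where 0.192% were, and none rose between the days.

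The second list holds 11 tested genes of wax ester, triglyceride and sterol ester synthesis and droplet storage. Between the days 3 fell in treatment skin and none in control or model skin, where 7.53%, 3.33% and 6.85% of all genes were called lower. Dgat2l6, a relative of the wax synthases, went from 18.8 ± 1.3 FPKM (SD, n = 4) to 5.7 ± 2.82 (-1.67, SE 0.29, adjusted p = 0.00355). Far1, the paralogue of Far2, differed by -0.67 (adjusted p = 0.00285) and the droplet protein gene Cidea by -1.12 (adjusted p = 0.0273). Far1 was also called lower with the extract than without it at day 15 (-0.49, adjusted p = 0.00648), the 1 gene of 11 called there, where 19.7% of all genes were, while Far2 differed by 0.13. No gene of this list was called between DHT and control skin at day 10 or day 15, where 13.8% and 10.8% of all genes were.

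The third list holds 10 tested genes of acyl-CoA synthesis, transport and binding. The fatty acid binding protein gene Fabp5 was called lower with DHT on both days (-0.55 at day 10, adjusted p = 0.00397) and higher with the extract at day 15, and these comparisons share the model mice. At day 15 it measured 960 ± 49.5 FPKM (SD, n = 4) in control, 685 ± 82.3 in model and 989 ± 90.4 in treatment skin (DHT -0.49, adjusted p = 0.00973; extract 0.53, adjusted p = 0.00281). Slc27a4, a fatty acid transport protein, measured 36.7 ± 2.15, 27.6 ± 2.19 and 40 ± 3.56 FPKM in the same groups (-0.40, adjusted p = 0.0129, and 0.52, adjusted p = 0.00124). With DHT at day 15 Acsl5 fell as well (-0.25), and with the extract Acsl4 fell (-0.67). With DHT this made 1 of 10 called at day 10 and 3 of 10 at day 15, where 13.8% and 10.8% of all genes were, and with the extract 0 and 3 of 10, where 0.192% and 19.7% were. Between the days none of the 10 was called in control skin. Slc27a4 fell in model skin (-0.32, SE 0.09, adjusted p = 0.0338), and Acsl4 (-0.57, SE 0.14, adjusted p = 0.0176) and Slc27a3 (-0.59, SE 0.15, adjusted p = 0.0224) fell in treatment skin, where 3.33%, 6.85% and 7.53% of all genes were called lower. Acsbg1, not called with the extract, was at 14.9 ± 1.32, 8.64 ± 2.71 and 9.65 ± 1.8 FPKM in the same groups. Fabp5 and Slc27a4 are also genes of the epidermis. Of 6 suprabasal epidermis markers, 3 were called lower with DHT at day 10 and 4 at day 15, and 3 were called higher with the extract at day 15. With DHT, 2 of the 6 had a fitted difference above 0 on each day. At day 10 the summed level of the 6 ran from 935 to 1462 FPKM in control skin (median 1014) and from 820 to 1725 in model skin (median 1233). Their summed level ran from 775 to 865 FPKM in control, 451 to 834 in model and 684 to 962 in treatment skin at day 15, none was at 0 in all libraries, and their part in the Fabp5 and Slc27a4 results was not tested.

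The fourth list holds 12 genes of sebaceous lineage regulators, duct and receptors. At day 10 DHT skin had less Prdm1, a repressor described in sebocyte precursors and other skin cells (-0.65, SE 0.14, adjusted p = 0.0081), less Insig2 (-0.46) and more Nr1h3, the liver X receptor alpha (0.60, SE 0.17, adjusted p = 0.0255), 3 of 12 where 13.8% of all genes were called. At day 15 none of the 12 was called with DHT, where 10.8% of all genes were, and with the extract 1 rose, Rxra (0.20, adjusted p = 0.0468), where 19.7% of all genes were called. The duct keratin gene Krt79 fell between the days in model (-0.92, adjusted p = 0.038) and treatment skin (-1.14, adjusted p = 0.0129). Mc1r fell in control (-0.62) and model skin (-0.62), and Nr1h3 rose in control skin (0.59, adjusted p = 0.0494). That made 1 of 12 called lower in control, 2 in model and 1 in treatment skin, where 3.33%, 6.85% and 7.53% of all genes were. Pparg, the nuclear receptor of sebocyte and adipocyte differentiation, was called in no comparison, and its DHT differences were 0.22 and -0.16 (SE 0.23 each) at day 10 and day 15. Summed markers of 8 macrophage genes, where Nr1h3 is also expressed, ran from 591 to 960 FPKM in control and from 1482 to 2152 in DHT skin at day 10, and their part in the Nr1h3 result was not tested.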

How the data were processed

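Poly(A) RNA of mouse skin was measured in 24 libraries. Per the submitters' processing notes, the authors used fastp, HISAT2, HTSeq and the build GRCm39, with versions, settings and annotation release not given in the sources used here. The deposited values are FPKM per gene for 18892 symbols, and all value columns were matched to a sample by name. Groups came from the sample titles. Whole reads were recovered from the FPKM steps of 18715 of 18715 genes above 0 (100%, highest deviation 0.000702 of a read against a tolerance of 0.01; 505 genes above 0 in 1 library were taken as 1 read there), with totals of 37048896 to 41117262.

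The 13039 genes that reached 1 FPKM in 4 or more libraries were kept, and 5853 were removed. To log2(FPKM + 1) of all 24 libraries, a model with a mean for each group was fitted with limma 3.58.1 in R 4.3.3 (trend and robust), two-sided, with Benjamini-Hochberg adjustment over all genes in each of 11 comparisons. A pseudocount of 1 shrinks differences of low genes. The p-values measure the spread between mice. The script was tested on simulated data. All members are named, as are up to 4 called genes per list and comparison and the 5 most alike genes. A gene of the lists is not reported here, and the counts include it.

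Members and lists were chosen with earlier results of these data known. Alternatives were leaving the filter out, asking for a mean of 5 FPKM, a pseudocount of 0.1, other scalings, only the groups compared, a replicate block, voom on the reads, and leaving out each library or those with low Y-linked sums. Leaving out both mouse 3 libraries of day 15, or Y-linked sums under 0.8 of the median, was added after seeing the data. RefSeq promoters (GRCm38.p6) were matched by symbol.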

Additional observations from a re-analysis of the deposited data

Results flagged for a closer look

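Of the 60 sets of 4 mice (10 genes in 6 groups), 2 held a mouse far from the other 3, and chance alone flags about 1 in 20 sets. Fa2h was lowest in control mouse 3 at day 10, at 34.1 FPKM, where the nearest other mouse of the group had 50.9, a gap of 0.861 of the range of the group. The same mouse had the lowest Scd1, Scd3, Awat1, Awat2, Far2, Dgat2 and Acsbg1 level of its group. Mc5r was highest in treatment mouse 1 at day 10, at 8.02 FPKM, where the nearest other mouse had 5.79, a gap of 0.931 of the range.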

How the results depend on the processing

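No member changed the sign of a call under any alternative, and 2008 of 2079 recomputed member differences kept their side of the threshold. Of these, 62 changed sign and were not called under either setting. Of the rest, 22 gained and 49 lost a call. The number of members called between the days in control skin went from 2 to 1 with a mean FPKM of at least 5 (Awat2 fails that filter) and with median-of-ratios scaling, and to 5 when only the groups compared were fitted. In model skin it went from 5 to 3 with median-of-ratios scaling, to 0 when only the groups compared were fitted and to 2 without both mouse 3 libraries of day 15, and in treatment skin from 6 to 3 without the 2 libraries with a Y-linked sum under 0.5 of the median. Median-of-ratios scaling moved the median of all genes between the days in model skin from -0.08 to 0.02. Treatment against control went from 0 to 3 members called at day 10 when only the groups compared were fitted, and from 0 to 4 at day 15 without both mouse 3 libraries. Without Y-linked sums under 0.8 of the median, treatment against model at day 15 went from 0 to 2 and its change between the days from 0 to 1. The cause of these changes was not tested.

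With each library left out in turn, members called ran from 0 to 1 for model against control at each day, were 0 for treatment against model at day 10 and 0 to 1 at day 15, were 0 for treatment against control at day 10 and 0 to 2 at day 15, and were 0 for both changes between days. Between the days they ran from 0 to 2 in control, 2 to 6 in model and 3 to 6 in treatment skin. Voom on the recovered reads called the same numbers of members as limma in all 11 comparisons, and 1704 genes in all for model against control at day 10, where limma called 1803. With the replicate number as a block, 0 members were called for model against control at day 10 and 1 at day 15, as without it, and no member count moved by over 1.5 times. The numbers do not pair the mice: same-numbered libraries correlated at -0.631 to 0.509 (median 0.047, 60 pairs), and 3 of 24 libraries correlated best with their own number. Depth does not bind for these genes, and 4 mice per group limit the precision.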
